A study of Emberiza melanocephala with 4 samples.

Results

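Vesicle trafficking genes are described here in RNA-seq labelled as testis of the black-headed bunting (Emberiza melanocephala), a migratory songbird that breeds seasonally. The members are the genes whose reference names begin with the symbols of small trafficking GTPases (RAB, ARF, ARL), the SEC translocation and coat proteins, VPS sorting proteins, SNAREs (VAMP, STX, SNAP), sorting nexins (SNX), p24 proteins (TMED), COPI subunits (COP) or adaptor subunits (AP). They were taken by name in any of the 4 deposited assemblies. A name appears only where a matching transcript was listed, so membership depends on detection in at least 1 library. The rule found 40 of 2239 reference genes, a total in which a gene without a symbol would be counted under its identifier. The 40 members are 14 Rab GTPases, 1 Rab effector, 7 Arf and Arl GTPases, 2 partners of Arl proteins, 3 adaptor subunits, 6 sorting nexins, 3 SNAREs, 2 subunits of the Sec61 channel and 2 p24 proteins. No transcript carried a VPS or COP name, so the sorting complexes and the COPI coat are not described by their own subunits.

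RNA came from birds caught in the wild, and the 4 libraries stand for 1 testicular state each, which the labels call sensitive, early stimulated, late stimulated or refractory. A photosensitive songbird can usually answer long days with growth of the gonads, and a photorefractory one does not keep up that growth under them. The labels give no age, day length, number of birds or pooling for any state. A state has 1 library and so no replicates, which leaves every difference below without an error or a p-value, as a description of these libraries.

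Membrane traffic moves cargo between compartments in vesicles. Arf-family GTPases and coat or adaptor complexes form the vesicle, Rab GTPases and their effectors mark compartments and guide tethering, and SNARE proteins on vesicle and target fuse the membranes. Newly made secretory and membrane proteins enter the endoplasmic reticulum (ER) through the Sec61 channel, p24 proteins help carry cargo between the ER and the Golgi, and sorting nexins pull cargo out of endosomes for recycling. In the testis this machinery serves, among others, the uptake of remnants by Sertoli cells and the formation of the acrosome, which is built from Golgi vesicles.

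A level is the coverage that the listed transcripts give to a gene's annotated exons, scaled to the aligned bases of the library so that it reads as FPKM. The aligned bases came to 120.5, 200.8, 428.4 and 318.1 Mb in the order sensitive, early, late, refractory. Transcripts without a reference match were listed only from a floor of 20.8, 12.5, 5.84 and 7.86 FPKM in that order, so a gene listed at 0 may be present below it. The markers went against the tissue label in part. Of 24 germ cell markers 3 carried a name, with a summed level of at most 12.9 FPKM in any library, and of 15 Sertoli and Leydig cell markers 2, with at most 6.50 FPKM. A marker that carried no name in any library was not measured, and the sums cover unlike numbers of genes. The 12 named photoreceptor markers, of 16 listed, summed to 10.1 FPKM in sensitive, with 11 of them at 0, and to 1635, 923 and 1722 FPKM in the other libraries. The 12 named neuron markers, of 18 listed, summed to 20.4 FPKM in sensitive, with 9 at 0, and to 1891, 1895 and 1841 FPKM in the other libraries. The libraries are named by their labels here, and the part of these cell types in the results below was not tested. In bulk RNA, fewer cells of a type and less RNA per cell cannot be told apart.

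Trafficking genes were among the better covered genes. Coverage was present in all 4 libraries for 31 of the 40 members (77.5%), against 52.8% of all 2239 genes. In the order of the states, the median level of the covered members was 60.1, 41.8, 44.6 and 45.2 FPKM, and over all covered genes it was 19.4, 16.6, 13.2 and 14.5 FPKM. Between the lowest and the highest library, the 31 members differed by a median of 2.12-fold, against 2.69-fold for the 1183 genes covered in all libraries. Of the members with at least 5 FPKM in some library, 14 of 34 were highest in sensitive, 5 in the early stimulated library, 4 in the late stimulated and 11 in the refractory one. Of 1528 genes at such a level, 37.6%, 14.5%, 18.7% and 29.3% had their highest value there, so the members were spread much like all genes. Names dropped out of the assemblies more often than coverage did: 18 members were listed under their own name in all 4 libraries and 9 in 1 library.

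**Figure D1:**
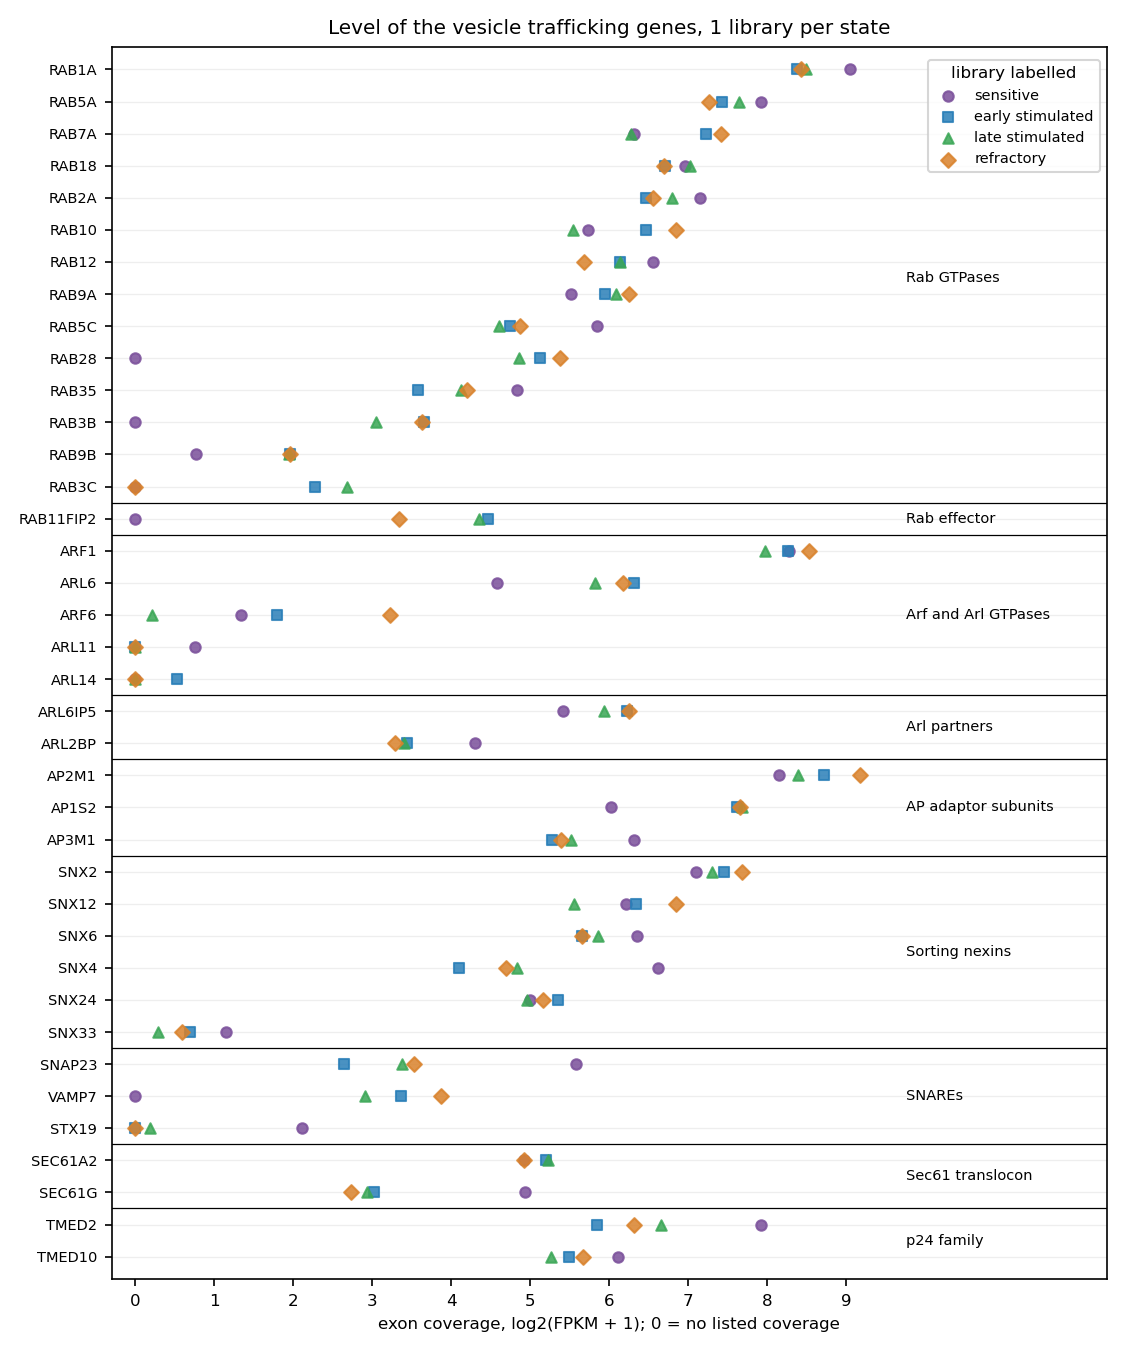
Level of the members described as log2(FPKM + 1) of exon coverage in the 4 libraries (1 point per library, no error), grouped by role and ordered by mean level within a role. RAB1A, AP2M1 and ARF1 lie furthest right, and points at 0 are genes with no listed coverage.

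Rab GTPases of the early secretory pathway were abundant in every library. RAB1A, which acts in traffic from the ER to the Golgi, was at 526 FPKM (sensitive), 329.8 FPKM (early stimulated), 359 FPKM (late stimulated) and 344 FPKM (refractory). Over all exon bases the library labelled sensitive was the high one. The RAB1A exons other than the last had 480, 459, 447 and 511 FPKM in the same order, highest in refractory. RAB2A, which acts between the Golgi and the ER, was at 140.2 FPKM in the sensitive library, 87.2 in the early stimulated, 110.1 in the late stimulated and 93.2 in the refractory one. The RAB2A exons other than the last had 154, 173, 139 and 215 FPKM in that order, also highest in refractory. Over all exon bases the ratio of RAB1A to RAB2A ran from 3.26 in late stimulated to 3.78 in early stimulated. By that measure the 2 genes kept nearly the same proportion. RAB18, linked to the ER and lipid droplets, was at 123 FPKM in the sensitive library, 103 in the early stimulated, 129 in the late stimulated and 102 in the refractory one. These are close values, but only 50.7%, 50.6% and 49.9% of its exon bases lay in listed exons in sensitive, early stimulated and refractory, against 100% in late stimulated.

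Rab genes of the endosomes were covered in all 4 libraries. RAB5A, which organises early endosomes, was at 241 FPKM (sensitive), 171 FPKM (early stimulated), 198 FPKM (late stimulated) and 153 FPKM (refractory). The RAB5A exons other than the last had 120, 121, 144 and 121 FPKM in that order, highest in late stimulated. RAB5C, the paralog of RAB5A, was at 56.3 FPKM under the sensitive label, 25.6 under early stimulated, 23.3 under late stimulated and 28.2 under refractory. Over all exon bases RAB5A was the higher of the pair in each library, but listed exons took in only 15.7% of the RAB5C bases in sensitive and 38.0% in late stimulated. On the bases also covered in early stimulated, all within its last exon, RAB5C had 358 FPKM in sensitive. RAB5A had 241 FPKM there over all its bases and 306 in its last exon. The RAB5C bases are only those that sensitive listed, so these values do not fix the order of the pair there. RAB7A, of late endosomes and lysosomes, was at 78.3 FPKM in the sensitive library, 148 in the early stimulated, 76.3 in the late stimulated and 169 in the refractory one. Listed exons took in 22.8% of its bases in sensitive and 23.95% in late stimulated, and all of them in early stimulated and refractory. The lower values are those of the libraries with fewer listed bases: on the bases each pair had in common, early stimulated had 209 and refractory 303 FPKM, against 344 FPKM in sensitive. RAB9A, which returns receptors from late endosomes to the trans-Golgi network, was at 44.8 FPKM (sensitive), 60.4 FPKM (early stimulated), 66.7 FPKM (late stimulated) and 74.9 FPKM (refractory), while its 1-exon paralog RAB9B reached 2.88 FPKM at most, in refractory. In sensitive RAB9B had 0.699 FPKM, on 51 aligned bases.

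Recycling and cell-surface Rab genes followed. RAB10, which acts in delivery to the plasma membrane, was at 52.2 FPKM in the sensitive library, 87.2 in the early stimulated, 45.6 in the late stimulated and 114 in the refractory one, the highest value being the one in refractory. RAB12, of recycling endosomes, was at 92.8 FPKM under the sensitive label, 69.2 under early stimulated, 69.6 under late stimulated and 50.1 under refractory. Over all exon bases sensitive was high and refractory low. The RAB12 exons other than the last had 70.7, 93.7, 65.8 and 71.7 FPKM in that order, highest in early stimulated. RAB35, of fast endocytic recycling, was at 27.4 FPKM (sensitive), 10.9 FPKM (early stimulated), 16.5 FPKM (late stimulated) and 17.3 FPKM (refractory). Over all exon bases the sensitive library was again the high one for RAB35. The RAB35 exons other than the last were highest in refractory, at 18.2 FPKM, against 14.6 FPKM in sensitive.

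RAB28, RAB3B, RAB3C and RAB11FIP2 had no coverage in the library labelled sensitive. RAB28, whose loss in humans causes a cone-rod dystrophy, was at 0 FPKM under the sensitive label, 33.9 under early stimulated, 27.9 under late stimulated and 40.4 under refractory. RAB3B and RAB3C, Rab proteins of regulated secretion, were at 11.6, 7.29 and 11.4 FPKM (RAB3B) and at 3.85, 5.42 and 0 FPKM (RAB3C) in early stimulated, late stimulated and refractory. RAB11FIP2, which binds RAB11 on recycling endosomes and was the 1 Rab effector found, was at 0 FPKM (sensitive), 21.1 FPKM (early stimulated), 19.3 FPKM (late stimulated) and 9.14 FPKM (refractory). All of these levels except those of RAB28 and the early stimulated value of RAB11FIP2 lie under the sensitive floor of 20.8 FPKM, and none reaches the 42.5 FPKM that the threshold used below would need over that floor, so their absence from sensitive is not a measured difference. In its exons other than the last, RAB28 had 49.2 FPKM (early stimulated), 41.6 FPKM (late stimulated) and 59.5 FPKM (refractory), past that limit in early stimulated and refractory.

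Among the Arf family, ARF1, which recruits coats and adaptors to the Golgi, was at 307 FPKM in the sensitive library, 307 in the early stimulated, 249 in the late stimulated and 369 in the refractory one. The ARF1 exons other than the last had 138, 264, 156 and 381 FPKM in that order. ARF6, which acts in endocytosis at the plasma membrane, was far lower, at 1.52 FPKM (sensitive), 2.47 FPKM (early stimulated), 0.161 FPKM (late stimulated) and 8.35 FPKM (refractory). In late stimulated it rested on 36.4 aligned bases and in sensitive on 97. ARL6, known as BBS3, which brings the BBSome to the base of cilia, was at 22.9 FPKM (sensitive), 78.7 FPKM (early stimulated), 55.3 FPKM (late stimulated) and 71.2 FPKM (refractory), low in sensitive. The 1-exon genes ARL11 and ARL14 were under 1 FPKM wherever they were covered. ARL11 was covered in sensitive alone, by 47 aligned bases, and ARL14 in early stimulated alone, by 51. Of the Arl partners, ARL6IP5, an ER membrane protein, was at 41.8 FPKM under the sensitive label, 74.0 under early stimulated, 60.0 under late stimulated and 75.1 under refractory, and ARL2BP, which binds ARL2 and is found at cilia, was at 18.6 FPKM (sensitive), 9.84 FPKM (early stimulated), 9.53 FPKM (late stimulated) and 8.79 FPKM (refractory). Sensitive was low for the first of these and high for the second.

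Adaptor complexes select cargo for clathrin-coated and related vesicles. AP2M1, the cargo-binding subunit of the plasma membrane complex AP-2, was at 283 FPKM (sensitive), 419.6 FPKM (early stimulated), 333 FPKM (late stimulated) and 576 FPKM (refractory). Over all exon bases AP2M1 was the most abundant member in early stimulated and refractory. Listed exons took in 50.8% of its bases in sensitive and 52.2% in early stimulated, against 100% in late stimulated and refractory. Its exon 1 had no listed coverage in sensitive or early stimulated, and 0.0012 and 0.0066 FPKM in late stimulated and refractory. On the bases covered in both libraries, AP2M1 had 558 FPKM in sensitive and 977 in refractory. AP1S2, a small subunit of the trans-Golgi complex AP-1, was at 64.1 FPKM in the sensitive library, 194 in the early stimulated, 203 in the late stimulated and 199.9 in the refractory one. The values outside sensitive lie within a few percent of each other. AP3M1, the cargo-binding subunit of AP-3, which sorts to lysosome-related organelles, was at 78.4 FPKM under the sensitive label, 37.8 under early stimulated, 44.6 under late stimulated and 41.0 under refractory. The ratio of AP1S2 to AP3M1 was 0.818 in sensitive and 5.14, 4.57 and 4.88 in early stimulated, late stimulated and refractory.

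Sorting nexins spanned a wide range. SNX2, which works with the retromer on endosomal tubules, was at 135 FPKM (sensitive), 174 FPKM (early stimulated), 157 FPKM (late stimulated) and 204 FPKM (refractory), lowest in sensitive. Its type of partner SNX6 was at 80.6 FPKM under the sensitive label, 49.3 under early stimulated, 57.1 under late stimulated and 49.3 under refractory, highest in sensitive, so that SNX2 over SNX6 was 1.68 in sensitive and between 2.75 and 4.13 in the other libraries. SNX4, which acts in recycling and autophagy, was at 96.9 FPKM (sensitive), 16.1 FPKM (early stimulated), 27.6 FPKM (late stimulated) and 24.7 FPKM (refractory). The sensitive value is the high one by a wide margin. SNX12 and SNX24, small nexins with little beyond the lipid-binding PX domain, were at 73.3 FPKM in the sensitive library, 79.6 in the early stimulated, 46.1 in the late stimulated and 114 in the refractory one for SNX12 and at 30.9 FPKM under the sensitive label, 39.8 under early stimulated, 30.1 under late stimulated and 34.8 under refractory for SNX24. SNX33, a nexin with an SH3 domain, was at most 1.22 FPKM, in sensitive.

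SNAREs were represented by 3 genes. SNAP23, the plasma membrane SNARE of many tissues, was at 46.7 FPKM under the sensitive label, 5.26 under early stimulated, 9.34 under late stimulated and 10.5 under refractory, highest in sensitive. VAMP7, a SNARE of late endosomes and lysosomes, was at 0 FPKM in the sensitive library, 9.31 in the early stimulated, 6.52 in the late stimulated and 13.6 in the refractory one, all under the sensitive floor. STX19, a syntaxin with no membrane anchor of its own, was at 3.32 FPKM in sensitive and 0.135 in late stimulated, with no coverage in early stimulated or refractory. Its sensitive value lies under the floors of early stimulated (12.5 FPKM) and refractory (7.86 FPKM), so its absence there is not a measured difference.

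At the ER, SEC61A2, an alpha (pore) subunit of the Sec61 channel, was at 29.3 FPKM in the sensitive library, 35.7 in the early stimulated, 36.2 in the late stimulated and 29.3 in the refractory one, a narrow range. SEC61G, its small gamma subunit, was at 29.6 FPKM (sensitive), 7.11 FPKM (early stimulated), 6.61 FPKM (late stimulated) and 5.61 FPKM (refractory). Over all exon bases the ratio of SEC61A2 to SEC61G was 0.990 in sensitive and 5.02, 5.48 and 5.21 in early stimulated, late stimulated and refractory. In the exons other than the last, SEC61G was the higher of the pair in every library. It had 251, 83.4, 67.5 and 68.1 FPKM there in the order of the states, and SEC61A2 35.8, 49.0, 50.4 and 37.7 FPKM. TMED2 and TMED10, p24 proteins that assemble with each other, were at 242 FPKM under the sensitive label, 56.2 under early stimulated, 99.8 under late stimulated and 78.3 under refractory for TMED2 and at 67.8 FPKM (sensitive), 43.8 FPKM (early stimulated), 37.4 FPKM (late stimulated) and 49.6 FPKM (refractory) for TMED10. Over all exon bases both were highest in sensitive, TMED2 by more. In the exons other than the last, TMED2 was still highest in sensitive, at 185 FPKM. TMED10 had 87.3, 85.5, 47.8 and 106 FPKM there in the order of the states, highest in refractory.

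The library labelled early stimulated was set against the library labelled sensitive to ask how the members stood at the start of stimulation. Lower in early stimulated were genes of the ER and early secretory pathway (TMED2, SEC61G), of endosomal recycling and sorting (SNX4, RAB35, RAB5C, AP3M1) and the SNARE SNAP23. Higher were the adaptor subunit AP1S2, the ciliary GTPase ARL6 and the low-level gene RAB9B. A gene was counted as different when log2(FPKM + 1) differed by 1 or more, a scale that adds a pseudocount of 1 and understates the change of low genes, provided that either library had 1 FPKM. A gene uncovered in 1 library was counted only if the other library was that far above its listing floor. Of 37 members with such a level, 3 were higher (8.11%) and 7 lower (18.9%), 21 differed by less and 6 were not measurable. Over all 1782 genes 15.4% were higher and 16.6% lower. Among genes covered in both libraries the shares were 18.1% and 21.7%. The median over the 31 members covered in both libraries was -0.25, against -0.16 over 1203 genes. The share of members called lower thus lay near that of all genes, and the share called higher lay below it.

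The 4 lowest differences were those of SNAP23, SNX4, TMED2 and SEC61G. SNAP23 stood at 5.26 FPKM in early stimulated and 46.7 in sensitive, a difference of -2.93; in early stimulated only 27.8% of its exon bases lay in listed exons. On the 2 of its 7 exons covered in both libraries the early stimulated level was 0.216 and 0.268 times the sensitive one. The name SNAP23 was carried in sensitive alone, so the gene entered the members through the library where it was high. SNX4 stood at 16.1 FPKM in early stimulated and 96.9 in sensitive (-2.52), and all 12 exons covered in both were lower, at 0.0699 to 0.498 times. TMED2 was at 56.2 FPKM in early stimulated and 242 in sensitive (-2.09), with all 3 exons lower. SEC61G was at 7.11 and 29.6 FPKM in early stimulated and sensitive (-1.92), again with all 3 exons lower, at 0.0929 to 0.335 times. Exons of 1 gene share its library and do not stand for replicates. In FicAlb_1.4 these genes lie at scaffold JH603236.1:1181886-1191654 on the minus strand (SNAP23), scaffold JH603187.1:4450103-4483406 on the minus strand (SNX4), scaffold JH603179.1:12428636-12433944 on the plus strand (TMED2) and scaffold JH603255.1:720025-724797 on the minus strand (SEC61G).

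Also lower were RAB35 (-1.25), RAB5C (-1.10) and AP3M1 (-1.03). All 9 exons of AP3M1 and all 4 shared exons of RAB35 were lower in early stimulated. With another scaling (median of ratios), AP3M1 and RAB5C came to -0.89 and -0.96, short of the threshold. RAB5C rested on its last exon alone in sensitive, and its other exons had 45.4 FPKM in early stimulated and no listed coverage in sensitive, so its direction turned with the exons used. Among the genes of similar roles that stayed under the threshold were RAB1A (-0.67), RAB2A (-0.68), RAB5A (-0.49), SNX6 (-0.70) and TMED10 (-0.62).

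ARL6 had the highest called difference. It stood at 78.7 FPKM in early stimulated and 22.9 in sensitive, a difference of 1.74, and all 6 of its exons were higher, at 2.33 to 12.9 times. Under its own name alone it came to 0.86, under the threshold. AP1S2 stood at 194 FPKM in early stimulated and 64.1 in sensitive (1.59), with 3 of 4 exons higher. In FicAlb_1.4 ARL6 lies at scaffold JH603229.1:3527667-3539511 on the minus strand and AP1S2 at scaffold JH603194.1:4619590-4635516 on the plus strand. RAB9B, at 2.87 and 0.699 FPKM in early stimulated and sensitive (1.19), rested on 349 and 51 aligned bases and missed the threshold at 0.47 with a pseudocount of 5. Close under the threshold were RAB7A (0.91), ARL6IP5 (0.81) and RAB10 (0.73). Median-of-ratios scaling took RAB7A past it, to 1.05, whereas on the bases covered in both libraries it was lower in early stimulated, as were 4 of its 5 shared exons. The photoreceptor and neuron markers, which summed to 1635 and 1891 FPKM in early stimulated and to 10.1 and 20.4 FPKM in sensitive, moved with ARL6 and AP1S2, and their part was not tested.

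**Figure D2:**
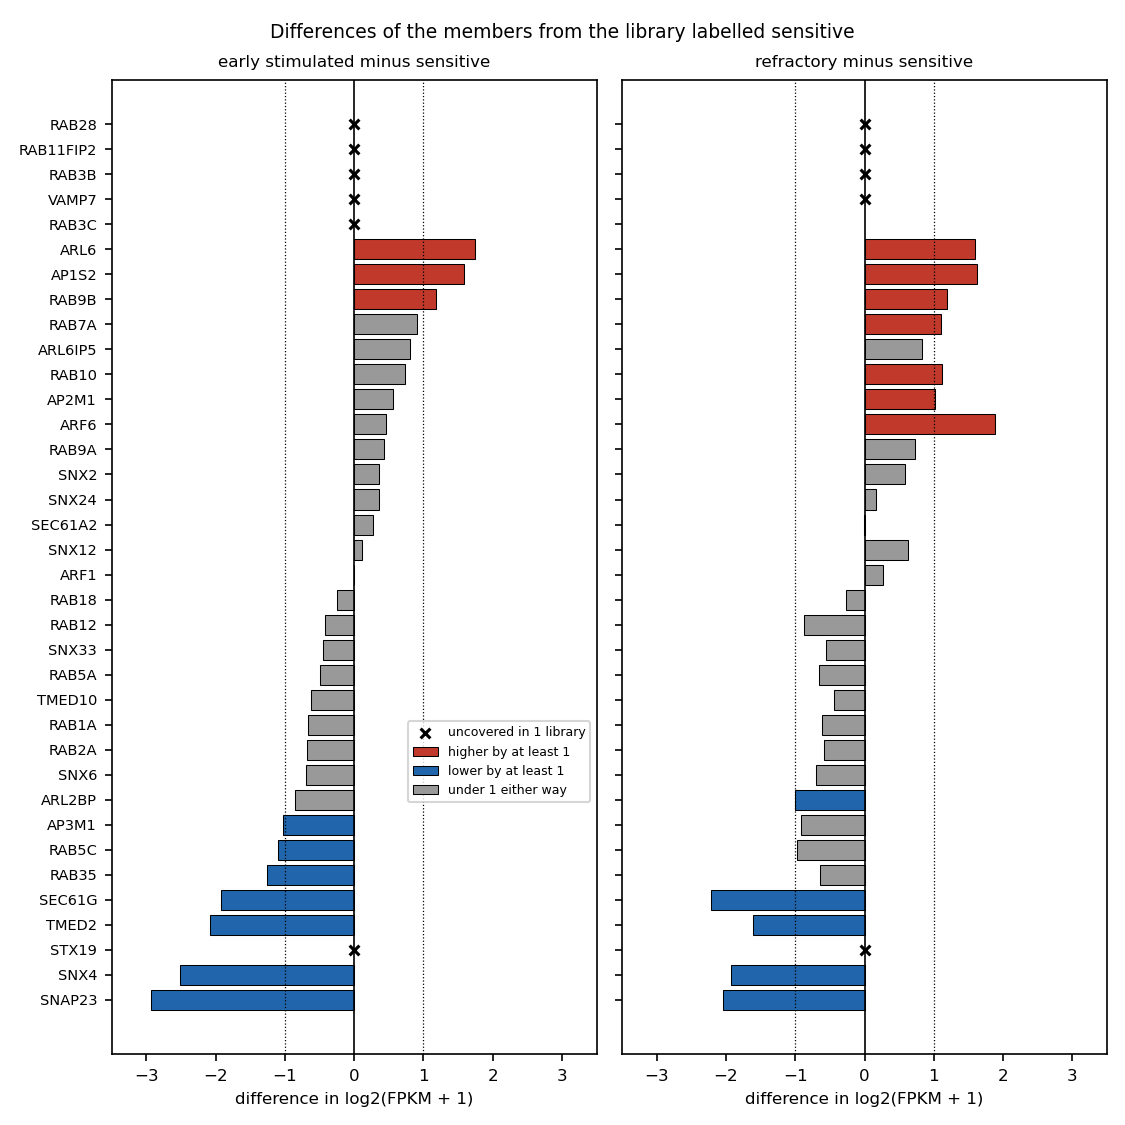
Difference of the members from the library labelled sensitive in log2(FPKM + 1), on the left for early stimulated and on the right for refractory, in the order of the left panel. Dotted lines mark a difference of 1, crosses mark members uncovered in 1 of the libraries, and a row with neither has a difference near 0 or no coverage in both. ARL11 and ARL14, under 1 FPKM, are among those not drawn.

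Coverage along the genes differed between these libraries as well. Among members with more than 1 exon, 27 were covered in both. Their last exons had a median difference of -0.63 and their other exons one of 0.015, and in 20 of the 27 (74.1%) the last exon was the lower of these differences. Over 856 genes the medians were -0.32 and 0.022, and the share was 68.1%, not far from that of the members. TMED2 is an example. Its last exon had 47.0 FPKM in early stimulated and 254 in sensitive, and its other exons 103 and 185 FPKM in the same libraries. With the last exon left out, the members called came to 5 higher and 3 lower, and the median of the members turned to 0.19. Over all 1736 genes measured that way, 17.7% were higher and 15.6% lower, with a median of -0.017, while of the members 13.5% were higher and 8.11% lower. SNX4 (-1.75), SEC61G (-1.58), SNAP23 (-3.26), ARL6 (1.73) and AP1S2 (1.62) were still past the threshold, whereas TMED2 (-0.84), AP3M1 (-0.79) and RAB35 (-0.54) were not, and RAB5C turned to 5.53.

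**Figure D3:**
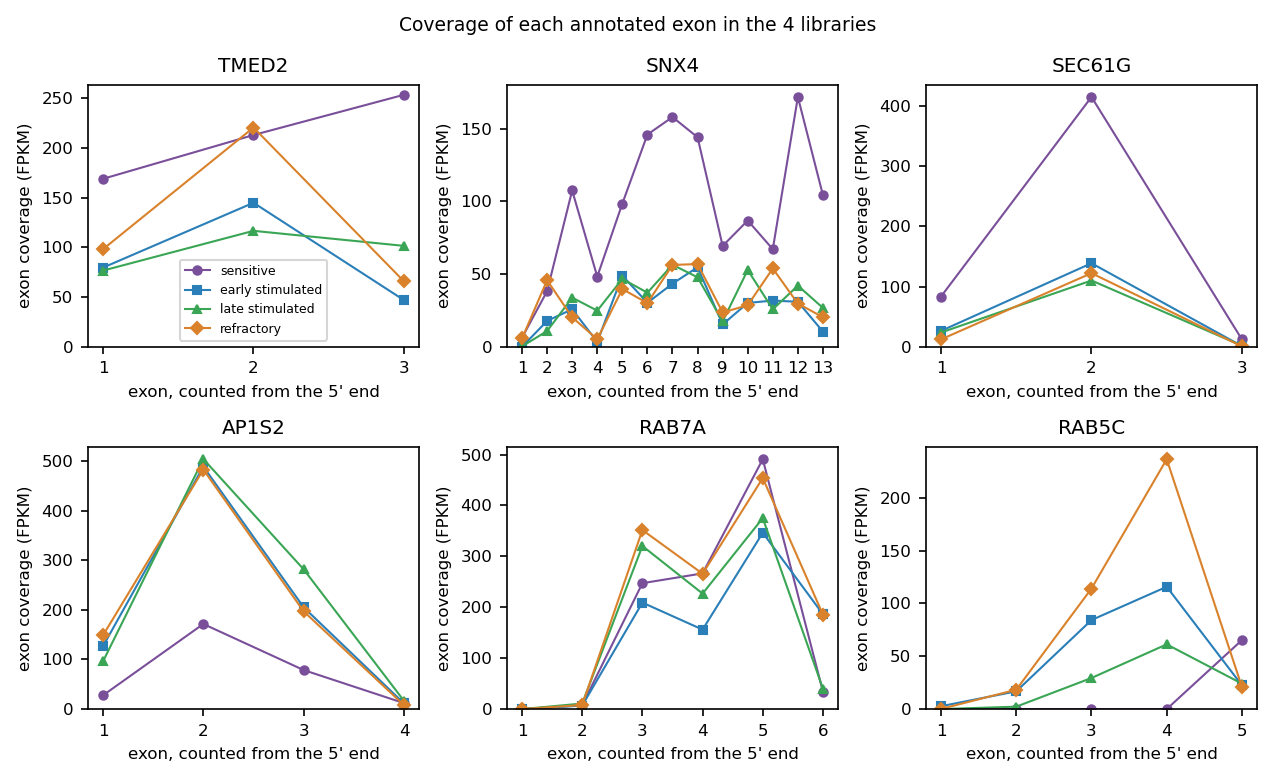
Coverage of each annotated exon, in FPKM, for 6 members in the 4 libraries, with exons numbered from the 5′ end and lines only joining the points of a library. SNX4 and SEC61G lie higher in sensitive over most exons, AP1S2 lies lower there over its first 3 exons, RAB7A differs most in its last exon, and RAB5C has no coverage in sensitive before its last exon.

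The library labelled late stimulated was set against the library labelled early stimulated next. The trafficking genes were close between these libraries, and by the medians given below all genes were as close. The comparison does not use the sensitive library, which stood apart in its markers and floor. Of 35 members with at least 1 FPKM in either, 0 were higher and 1 was lower (2.86%), while over all 1682 genes 3.51% were higher and 8.09% lower. Among genes covered in both they were 3.85% and 8.5%. Members had a median of -0.091 and all 1506 genes covered in both one of -0.091. The gene that was lower, ARF6, stood at 0.161 FPKM in late stimulated and 2.47 in early stimulated (-1.58). It rested on 36.4 and 262 aligned bases and passed neither with a pseudocount of 5 (-0.53) nor under a minimum of 5 FPKM.

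Several members came near the threshold without passing it. RAB7A stood at 76.3 FPKM in late stimulated and 148 in early stimulated (-0.95), RAB10 at 45.6 and 87.2 FPKM (-0.92) and SNX12 at 46.1 and 79.6 FPKM (-0.78) in the same order. For RAB7A the sign turned on the bases covered in both libraries, with 319 FPKM in late stimulated and 199 in early stimulated, and 4 of its 5 shared exons were higher in late stimulated. In the other direction were TMED2 (0.82), SNX4 (0.74) and SNAP23 (0.72), the genes with the lowest differences but for SEC61G in the preceding comparison. Both comparisons use the early stimulated library. For TMED2 only 1 of its 3 exons, the last, was higher in late stimulated, at 102 FPKM against 47.0 in early stimulated. Its other exons together had 90.8 FPKM in late stimulated and 103 in early stimulated, so the sign turned without the last exon. The sign of SNAP23 turned on the bases covered in both, with 16.6 FPKM in late stimulated and 18.9 in early stimulated, and its 2 shared exons split, 1 higher and 1 lower. For SNX4, 8 of its 12 shared exons were higher in late stimulated and 4 lower. The SNX4 last exon had 26.8 FPKM in late stimulated and 10.4 in early stimulated, and its other exons together 28.8 and 24.8 FPKM. The group of Rab GTPases had a median of 0.066 over 14 genes and the sorting nexins one of -0.15 over 5.

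The library labelled refractory was then set against the library labelled late stimulated. Called higher in refractory were RAB10, RAB7A, SNX12 and ARF6, and among the lower was the Rab effector RAB11FIP2. Of 35 members, 4 were higher (11.4%) and 2 lower (5.71%), against 13.9% and 6.01% of 1714 genes, or 14.8% and 6.36% of those covered in both, so both shares lay near those of all genes. The median of 34 members covered in both was 0.11, and that of 1541 genes 0.16.

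RAB10 stood at 114 FPKM in refractory and 45.6 in late stimulated (1.3), and all 5 exons were higher, at 2.29 to 2.90 times. SNX12 stood at 114 and 46.1 FPKM in refractory and late stimulated (1.29), with its 3 shared exons higher. The name SNX12 was carried in refractory alone, so the gene entered the members through the library where it was high. ARF6 stood at 8.35 FPKM in refractory and 0.161 in late stimulated (3.01), on 1402 and 36.4 aligned bases, so the late stimulated value is too thin to fix the size. RAB7A stood at 169 FPKM in refractory and 76.3 in late stimulated (1.14), a difference carried by its last exon. That exon had 186 and 40.1 FPKM in refractory and late stimulated, and the other exons together 146 and 126 FPKM. Listed exons took in all of the exon bases of RAB7A in refractory and not in late stimulated, and over the bases covered in both the difference turned to -0.15. Median-of-ratios scaling gave 0.94, under the threshold.

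RAB11FIP2 stood at 9.14 and 19.3 FPKM in refractory and late stimulated, with all 5 exons lower. It lies at the threshold and missed it with a pseudocount of 5 (-0.78) and without the last exon (-0.80). Under its own name the sign of RAB11FIP2 turned, to 3.34, because no transcript carried that name in late stimulated. VAMP7, at 13.6 and 6.52 FPKM in refractory and late stimulated (0.96), and AP2M1, at 576 and 333 FPKM (0.79), stayed under the threshold. In AP2M1 11 of 12 exons were higher in refractory, but exon 1 among them had only 0.0066 FPKM in refractory and 0.0012 in late stimulated.

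The last comparison set the library labelled refractory against the library labelled sensitive. Among the lower in refractory were SEC61G, SNAP23, SNX4, TMED2 and ARL2BP, and higher were AP1S2, ARL6, ARF6, RAB9B, RAB10, RAB7A and AP2M1. Of 36 members, 7 were higher (19.4%) and 6 lower (16.7%), and of 1806 genes 17.3% and 18.2%. Restricted to coverage in both libraries, those shares of all genes were 19.9% and 23.7%. The members' shares lay near those over the 1806 genes. The median was -0.44 over 31 members and -0.12 over 1251 genes covered in both libraries.

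**Figure D4:**
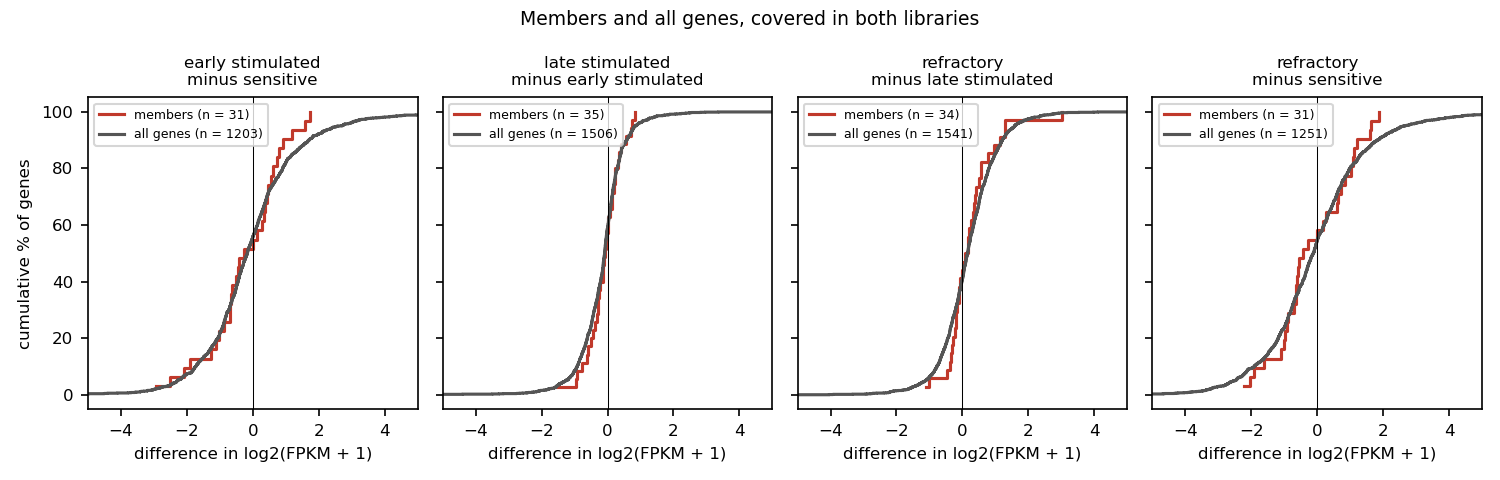
Cumulative percent of members and of all genes by their difference in log2(FPKM + 1), for the 4 comparisons, with genes covered in both libraries and the axis cut at 5 either way. The curves have medians of -0.25, -0.091, 0.11 and -0.44 for the members, from left to right, and of -0.16, -0.091, 0.16 and -0.12 for all genes, and that of the members is steepest for late stimulated minus early stimulated.

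Early stimulated and refractory were each set against the same sensitive library, so the values are given side by side and their likeness is not a result. SEC61G was at 5.61 FPKM in refractory and 29.6 in sensitive (-2.21), where early stimulated gave -1.92. SNX4 differed by -1.93 in refractory and -2.52 in early stimulated, SNAP23 by -2.05 and -2.93 and TMED2 by -1.62 and -2.09 in the same order. AP1S2 differed by 1.63 and 1.59, and ARL6 by 1.60 and 1.74. The refractory library added AP2M1, at 576 FPKM against 283 in sensitive (1.02), RAB10, at 114 against 52.2 FPKM (1.11), and RAB7A, at 169 against 78.3 FPKM (1.10). Over the bases covered in both libraries these came to 0.81, 0.80 and -0.18, under the threshold for AP2M1 and RAB10 and with the sign turned for RAB7A. ARF6, at 8.35 FPKM in refractory and 1.52 in sensitive (1.89), rested on 97 aligned bases in sensitive. ARL2BP, at 8.79 FPKM in refractory and 18.6 in sensitive, was only just lower and missed the threshold with a pseudocount of 5 (-0.78) and with median-of-ratios scaling (-0.93). RAB9B, at 2.88 and 0.699 FPKM, missed it with a pseudocount of 5 (0.47), and ARL6 under its own name (0.96). The photoreceptor and neuron markers summed to 1722 and 1841 FPKM in refractory and to 10.1 and 20.4 FPKM in sensitive, and their part in these differences was not tested. With the last exon left out, TMED2 came to -0.38 and the median of the members turned to 0.29, with 0.076 over all genes.

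Other trafficking genes outside the name rule were read from a list of 151 symbols, of which 18 carried a name. In early stimulated against sensitive 3 of these 18 were higher, 1 lower, 13 under the threshold and 1 not measurable. Of all 1782 genes 15.4% were higher and 16.6% lower. The higher ones were CPLX4, a complexin of retinal synapses, at 91.6 FPKM in early stimulated and 0 in sensitive, SH3GL2, an endophilin of synaptic vesicle recycling, at 261 FPKM and 0, and ARFGEF1, an activator of Arf proteins at the Golgi, at 35.6 and 11.3 FPKM. The photoreceptor and neuron markers moved with CPLX4 and SH3GL2, with sums of 1635 and 1891 FPKM in early stimulated and of 10.1 and 20.4 FPKM in sensitive, and their part was not tested. The lower one was SAR1A, the GTPase that starts COPII coats at the ER, at 33.5 FPKM in early stimulated and 74.4 in sensitive (-1.13). Its paralog SAR1B was at 22.6 and 27.5 FPKM in early stimulated and sensitive, a difference under the threshold. ARCN1, the delta subunit of the COPI coat, was at 71.6 FPKM in the sensitive library, 59.8 in the early stimulated, 30.3 in the late stimulated and 45.3 in the refractory one, and was the COPI gene of that list with a name. Late stimulated against early stimulated called 0 of the 18, where 3.51% of all genes were higher and 8.09% lower. Refractory against late stimulated also called 0, where those shares were 13.9% and 6.01%. Refractory against sensitive called 2 higher (CPLX4 and SH3GL2) and 0 lower, where 17.3% of all genes were higher and 18.2% lower. VAPB, which tethers the ER to other membranes, was at 168 FPKM in refractory and 86.1 in sensitive, just under the threshold, and its paralog VAPA was at 99.5 and 117 FPKM. The ESCRT genes CHMP4B, CHMP5 and TSG101, which sort cargo into multivesicular bodies, stayed under the threshold in all 4 comparisons.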

How the data were processed

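RNA-seq of 4 libraries was analysed from their deposited assemblies. Total RNA was taken with Tri reagent from frozen, ground tissue, per the labels' protocols. The submitters' processing notes list Trimmomatic, while the aligner was not given in the sources used here. Per the file headers, StringTie 1.3.3b assembled each library on FicAlb_1.4 of the collared flycatcher (Ficedula albicollis), another songbird, guided by Ensembl 89. The authors deposited FPKM and coverage, not counts, so depth is known only as aligned bases and no counting interval can be given.

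Gene values were computed with numpy 2.4.6 and pandas 2.3.3. Exons were those of a gene's reference-matched transcripts in any file, and coverage was summed over them from every transcript that had the gene's strand or none. A listed exon counts as covered over its whole length. The code for the exon values was tested by scaling the listed coverage of drawn genes in the late stimulated library by known folds. The calls were not tested that way. Libraries were grouped by the labels' testicular state, with 4 comparisons, no test, 7 alternatives and 2 more chosen after seeing the data. Members and lists were chosen with earlier results of these data known. By rule, the genes named were the 5 most abundant of each role, the 8 highest and 8 lowest called members of each comparison with at least 5 FPKM, and those listed in 1 library. The other members and genes named were chosen after their values were seen. No reference sequence was used here. The values of 2 members are not reported here and they are left out of the figures of single members, while counts and medians keep them. Exons that overlap another reference gene were found for 0 members.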

Additional observations from a re-analysis of the deposited data

How the results depend on the processing

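The settings that use bases covered in both libraries or leave out the last exon were chosen after seeing the data. No paired analysis was possible because each state has 1 library, and for the same reason no library could be left out. Leaving out exons shared with another gene could not change a member value, because 0 members have such exons. Dropping the filter on low values could not change a count of calls, because a difference of 1 needs at least 1 FPKM in 1 library. It turned no median. In early stimulated against sensitive, members higher came to 8 (21.6%) with uncovered genes taken as 0 (median 0.12). Without the last exon 5 (13.5%) were higher and 3 (8.11%) lower (median 0.19). Of all genes 34.5% and 17.7% were higher in these settings, and 15.6% were lower without the last exon. RAB35 and RAB5C reversed to 3.57 and 4.74 under their names, which no transcript carried in sensitive, and RAB5C to 5.53 without its last exon. In late stimulated against early stimulated, members lower were 0 with a pseudocount of 5 and 0 from 5 FPKM. They were 2 (5.71%) over bases covered in both libraries, 3 (8.57%) without the last exon and 6 (20.0%) under the genes' names. Under the names 4 (13.3%) were higher. Of all genes 3.75%, 8.38%, 10.2%, 10.5% and 14.7% were lower in that order, and 10.6% were higher under the names. In refractory against late stimulated, members lower were 1 (2.86%) with a pseudocount of 5 and 1 (2.86%) without the last exon. Members higher were 8 (23.5%) under the genes' names and 7 (20.0%) without the last exon. Of all genes 2.68% and 6.02% were lower and 20.8% and 18.1% higher in these settings. RAB11FIP2 reversed to 3.34 under its name and RAB7A to -0.15 over shared bases. In refractory against sensitive, members higher were 11 (30.6%) with uncovered genes as 0 (median -0.13) and 4 (12.9%) over shared bases. Of all genes 36.5% and 17.9% were higher in these settings. RAB7A reversed to -0.18 over shared bases, and the median of the members turned to 0.29 without the last exon. Median-of-ratios scaling put the median of all genes at -0.032 in early stimulated against sensitive, where it was -0.16 before, and at -0.028 in refractory against late stimulated, where it was 0.16. For the other changes the cause was not tested. Depth limits the genes under 5 FPKM, which rest on few aligned bases, and the sensitive library, which has the highest floor.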

Other observations

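SNX2 and SNX24 lie on the same strand of 1 scaffold of FicAlb_1.4, with 6.32 kb between their exons. Over all exon bases SNX2 was highest in refractory, at 204 FPKM, and SNX24 in early stimulated, at 39.8 FPKM. Listed exons took in 39.8% of the SNX24 bases in late stimulated, and on the bases covered in both libraries SNX24 had 77.5 FPKM in late stimulated and 56.1 in early stimulated, so its highest library turns with the bases used. For ARF1 the FPKM written for its transcript did not follow the coverage of its exons: refractory had 342 for the transcript and 369 FPKM for the exons, and sensitive 584 and 307 FPKM. Within ARF1, the last exon had 340.1 FPKM in refractory and 709 in sensitive, while the other exons together had 381 FPKM in refractory and 138 in sensitive. The SNX2 transcript under its own name had 2.81 FPKM in late stimulated and 5.13 in refractory, where other listed transcripts carried most of the coverage of its exons.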
